A study of Mus musculus with 45 samples.

Results

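The 10 genes Slc12a3, Pvalb, Trpm6, Wnk1, Wnk4, Stk39, Klhl3, Slc8a1, Calb1 and Trpv5 were followed as genes of the distal convoluted tubule and of the WNK kinase pathway that controls it. They were chosen by name, with earlier results of these data known, and they are 10 of the 55401 genes in the count tables. All 10 were among the 15991 protein-coding genes kept in males and the 15968 kept in females, so none was lost to the filter on low counts.

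The messages were measured by translating ribosome affinity purification (TRAP) RNASeq, in which ribosomes carrying an EGFP-tagged L10a protein are pulled down and the mRNA on them is sequenced. The kidneys came from 45 mice taken at P49 (7 weeks), in 6 groups. Noncystic mice were Pkd1 fl/+ (8 males, 7 females), Pkd1KO mice were Pkd1 fl/fl (7 males, 8 females), and Pkd1KO+ciliaKO mice were Pkd1 fl/fl and Kif3a fl/fl (9 males, 6 females). All 6 groups, the noncystic mice included, were hemizygous for R26 Rpl10a, Pax8 rtTA and TetO Cre and received doxycycline from P28 to P42. Noncystic mice thus also carried 1 floxed Pkd1 allele and active Cre, and loss of Kif3a without loss of Pkd1 was not among the groups. The Pax8 promoter limits the tag to tubule cells and their Cre-active descendants, but it labels all segments of the tubule together. The values are therefore levels in a mixture of segments, in which fewer cells of a segment and less RNA per cell cannot be told apart.

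The distal convoluted tubule takes up sodium and chloride through the thiazide-sensitive cotransporter NCC, the product of Slc12a3. WNK kinases activate the kinase SPAK, the product of Stk39, which phosphorylates NCC, and the adaptor made from Klhl3 brings WNK kinases to a ubiquitin ligase that marks them for breakdown. Mutations in WNK1, WNK4 and KLHL3 cause familial hyperkalaemic hypertension, and loss of SLC12A3 causes Gitelman syndrome. Trpm6 forms the apical magnesium channel of the early segment, where parvalbumin (Pvalb), a calcium-binding protein, is also made. Calcium is taken up mainly in the late segment and the connecting tubule, through the apical channel Trpv5, the cytosolic carrier calbindin (Calb1) and the basolateral sodium-calcium exchanger NCX1 (Slc8a1).

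Each mouse gave between 80874556 and 132958186 fragments on genes, so counting error was small: the least counted value of any of the 10 genes was 349 fragments, for Pvalb. Levels are given as CPM, counts scaled to the library size. Kif3a lay between 13.95 and 29.6 CPM in the noncystic and Pkd1KO males and between 4.83 and 7.54 CPM in the Pkd1KO+ciliaKO males. In females, 2 libraries went against their label. The library labelled noncystic replicate 5 had 6.725 CPM of Kif3a, where the group's median was 23.8 CPM, and the library labelled Pkd1KO+ciliaKO replicate 6 had 20.5 CPM, where the median was 7.71 CPM. Pkd1 counts cover the whole gene, not the floxed exons alone, and ranged from 33.3 to 84.8 CPM with all groups overlapping, so they do not check the label. In males, 4 libraries lay at one end of the first principal component, between 25.4 and 63.7 against -39.6 to 20.3 in the other males. They are noncystic replicate 3, Pkd1KO replicate 4 and Pkd1KO+ciliaKO replicates 6 and 8, called the males apart below. No clear gap bounds this set: noncystic replicate 3 (25.4) lay nearer to Pkd1KO replicate 3 (20.3) than to the next of the 4 (41.8). The main values that change without these males or those females are given both ways. Each comparison leaves out only those that belong to its groups.

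The RefSeq sequences before the start of 4 of the genes are shown, for the target transporter (Slc12a3), the gene with the widest spread (Pvalb), a kinase called in females (Wnk4) and the calcium channel (Trpv5). They were read on GRCm38.p6 at chr8:94328958-94329200 on the plus strand (Slc12a3), chr15:78206401-78206650 on the minus strand (Pvalb), chr11:101260317-101260566 on the plus strand (Wnk4) and chr6:41680770-41680973 on the minus strand (Trpv5). Each ends at the base before the RefSeq or the GENCODE start, whichever comes first. Capitals mark GCCNNNGGC, the motif of TFAP2 factors, and TATAAA, the site of the TATA-binding protein.
Slc12a3: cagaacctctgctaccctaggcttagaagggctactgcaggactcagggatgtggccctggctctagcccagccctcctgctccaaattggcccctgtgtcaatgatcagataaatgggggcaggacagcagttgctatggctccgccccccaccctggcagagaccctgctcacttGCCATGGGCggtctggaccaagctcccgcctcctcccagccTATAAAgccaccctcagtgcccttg
Pvalb: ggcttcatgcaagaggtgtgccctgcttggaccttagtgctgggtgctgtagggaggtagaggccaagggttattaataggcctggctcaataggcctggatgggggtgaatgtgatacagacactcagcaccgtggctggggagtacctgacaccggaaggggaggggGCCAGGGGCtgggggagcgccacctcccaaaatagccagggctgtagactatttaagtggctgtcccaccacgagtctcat
Wnk4: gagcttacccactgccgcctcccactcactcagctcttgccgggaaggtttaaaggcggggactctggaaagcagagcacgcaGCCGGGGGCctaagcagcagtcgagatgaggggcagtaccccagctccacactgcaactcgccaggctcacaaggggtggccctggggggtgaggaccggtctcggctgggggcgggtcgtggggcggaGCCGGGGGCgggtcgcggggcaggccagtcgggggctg
Trpv5: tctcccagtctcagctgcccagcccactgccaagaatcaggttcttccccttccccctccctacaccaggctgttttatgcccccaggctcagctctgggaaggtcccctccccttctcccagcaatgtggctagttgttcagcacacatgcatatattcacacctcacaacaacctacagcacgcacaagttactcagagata

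The promoter table held 9 of the 10 genes, all but Calb1, with 2 windows for Pvalb. In windows of 300 bases, from 250 before to 50 after the start, and on both strands, GCCNNNGGC was present for 6 of the 9 genes (Slc12a3, Pvalb, Trpm6, Wnk1, Wnk4 and Stk39) and in 16.6% of all 32851 promoters. It was absent from the windows of Klhl3, Slc8a1 and Trpv5. TATAAA was present for Slc12a3 and Trpv5 and in 13.6% of all promoters. The match of Trpv5 lies at -43 from the RefSeq start, past the sequence shown, which ends before the GENCODE start. GGGCGG, a GC box, was present for 4 genes (Slc12a3, Wnk1, Wnk4 and Stk39) and in 35.7% of all promoters, and in Slc12a3 1 of its 2 matches overlaps GCCNNNGGC. The palindromes of HNF1 and of the steroid hormone receptors were in none of the 10 windows, and in 0.00913% and 0.475% of all promoters. The motifs were picked after these windows had been searched, and the shares are a description.

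Compared per length, as TPM (levels scaled by the joined exon length of a gene and by library size), Calb1 stood highest of the 10 messages and Trpm6 lowest. In noncystic males the lowest, median and highest TPM of Calb1 were 386.5, 526.5 and 1274. Next stood the kinases Wnk4 (123.1, 172.5 and 264) and Wnk1 (119.7, 163.6 and 256.6), which overlapped almost wholly and changed places in noncystic females (medians 193.1 and 210). Slc12a3 followed with 74.3, 103.4 and 127.1 TPM, and then Slc8a1 with a median of 56.7. Klhl3 (40.2), Stk39 (39.3), Pvalb (26.6) and Trpv5 (23.2) formed a lower group of medians in which neighbours overlapped, above Trpm6 with 6.57, 11.2 and 18.6 TPM. The order depends on the joined exon length, which was 11119 bases for Slc12a3, 22825 for Wnk1, 4846 for Calb1 and 4148 for Wnk4. In CPM, without division by length, the median of Slc12a3 in noncystic males (385.6) lay above that of Wnk4 (249.2). In the same males the median CPM of Wnk1 (1271) lay above that of Calb1 (880.6). The Wnk1 count cannot separate the full-length kinase from the kidney-specific form without the kinase domain, since both are counted as 1 gene. The most counted gene that overlaps a member, an antisense gene at Wnk4, held 1310 fragments over the 45 mice against 1120125 of Wnk4.

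**Figure D1:**
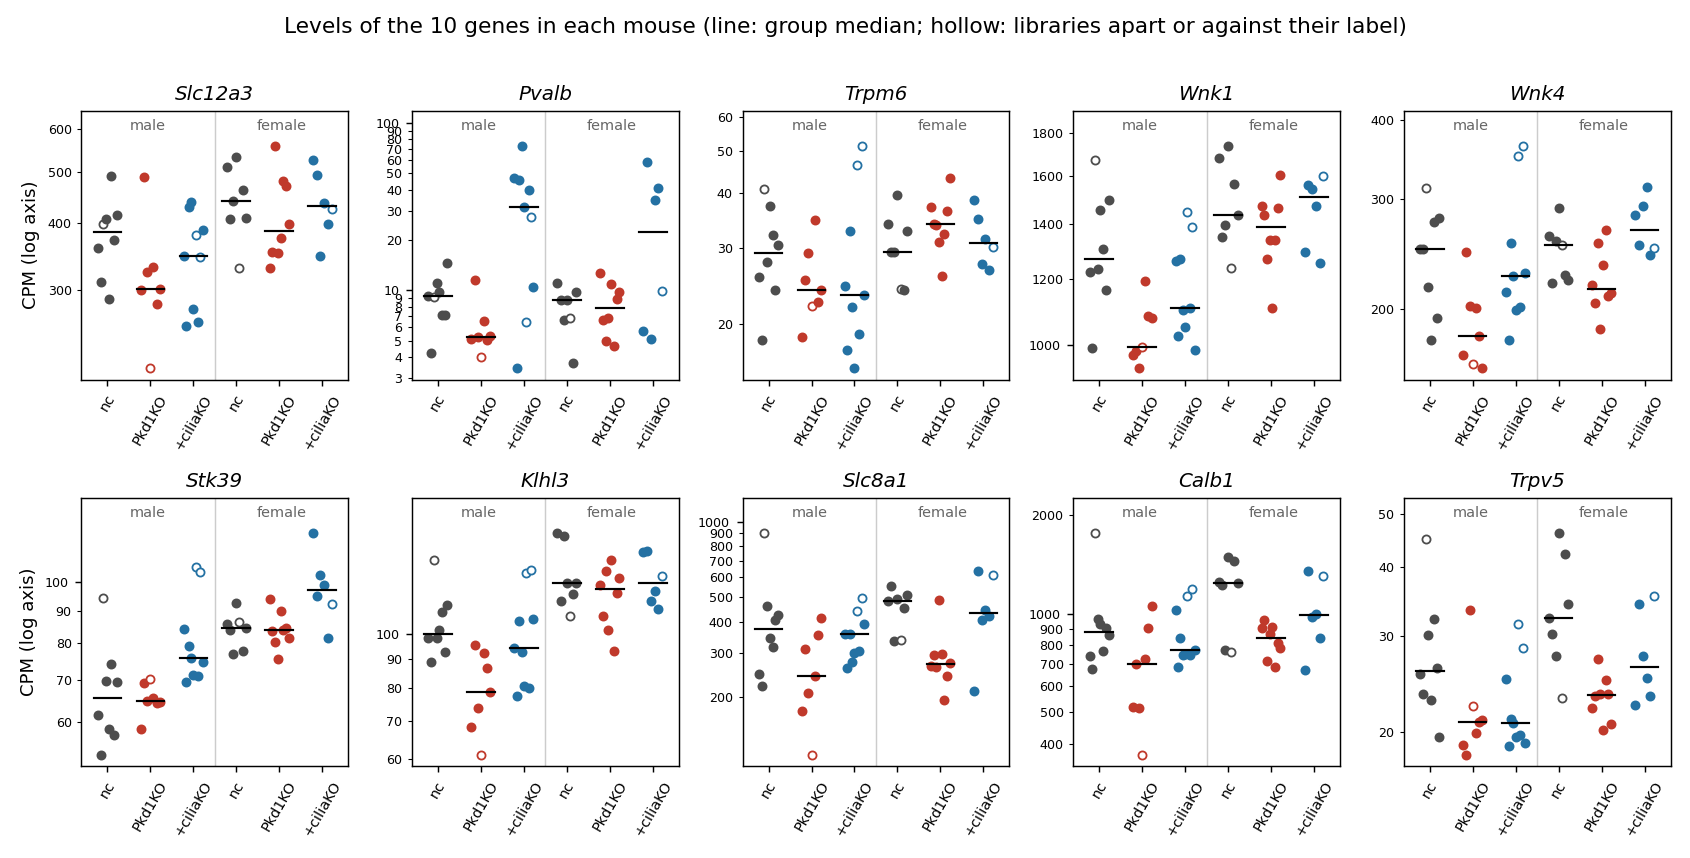
Each panel gives 1 of the 10 genes, with its level in CPM on a log axis for each of the 45 mice in 6 groups (nc, noncystic; Pkd1KO; +ciliaKO, Pkd1KO+ciliaKO; males left, females right). Lines are group medians and hollow points the 4 males apart and the 2 females against their label; Pvalb in both Pkd1KO+ciliaKO groups spreads from the level of the other groups to 72.7 CPM in males and 58.9 CPM in females.

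Slc12a3, the transporter at the end of the pathway, did not pass the test in any of the 6 genotype comparisons. Its lowest, median and highest levels were 289, 386 and 490 CPM in noncystic males, 214, 302 and 489.5 CPM in Pkd1KO males and 257, 347 and 438 CPM in Pkd1KO+ciliaKO males. In females they were 330, 440 and 532 CPM, 330, 387 and 558 CPM, and 348, 431 and 526 CPM in the same order of genotypes. The groups overlapped widely in both sexes, and no neighbours in the order of medians, from noncystic females down to Pkd1KO males, stood clear of each other. The furthest difference was that of Pkd1KO against noncystic males, a log2 fold change of -0.25 with a standard error (SE) of 0.15 (adjusted p = 0.346), or -0.153 without the 4 males apart (adjusted p = 0.614). Adjusted p-values of genes come from the quasi-likelihood test of edgeR, adjusted by Benjamini-Hochberg over all genes tested, with 0.05 as the threshold. In Pkd1KO+ciliaKO against noncystic females the log2 fold change of Slc12a3 was -0.0055 with an SE of 0.11.

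Pvalb, made together with NCC in the early distal convoluted tubule, rose in Pkd1KO+ciliaKO males and moved the most of the 10 genes. Its lowest, median and highest levels were 4.21, 9.20 and 14.5 CPM in noncystic males, 3.99, 5.25 and 11.6 CPM in Pkd1KO males and 3.41, 31.5 and 72.7 CPM in Pkd1KO+ciliaKO males. Of the 9 Pkd1KO+ciliaKO males, 6 lay above every noncystic male and 6 above every Pkd1KO male, while 1 lay below both groups. The log2 fold change of Pkd1KO+ciliaKO over noncystic males was 1.81 with an SE of 0.46, or 3.50-fold (adjusted p = 0.0188). That of Pkd1KO against Pkd1KO+ciliaKO males was -2.37 with an SE of 0.51, with the latter 5.16-fold higher (adjusted p = 0.0139).

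In females Pvalb showed the same spread. Its levels were 3.68, 8.72 and 11.1 CPM in noncystic, 4.66, 7.85 and 12.6 CPM in Pkd1KO and 5.14, 22.2 and 58.9 CPM in Pkd1KO+ciliaKO mice, of which 3 of 6 lay above every mouse of the other genotypes. Pvalb was lower in Pkd1KO than in Pkd1KO+ciliaKO females, with a log2 fold change of -1.68 and an SE of 0.47 (adjusted p = 0.0321), and the call ended when Pkd1KO replicate 2 or 6 or Pkd1KO+ciliaKO replicate 2, 4 or 5 was left out (highest adjusted p = 0.095, without Pkd1KO+ciliaKO replicate 2). Pkd1KO+ciliaKO against noncystic females, at 1.71 with an SE of 0.50, missed the threshold (adjusted p = 0.0747). Without the 2 females against their label the log2 fold change of Pkd1KO against Pkd1KO+ciliaKO was -1.85 (adjusted p = 0.0235), and without the 4 males the male values were 1.97 over noncystic (adjusted p = 0.0107) and -2.46 (adjusted p = 0.0132). Pkd1KO against noncystic mice gave -0.56 in males (adjusted p = 0.188) and 0.03 in females (adjusted p = 0.971).

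Within the Pkd1KO+ciliaKO mice, Pvalb and Slc12a3 were set side by side. In Pkd1KO+ciliaKO males, replicates 1 to 9 had 46.7, 3.41, 45.5, 72.7, 31.5, 6.45, 39.6, 27.5 and 10.4 CPM of Pvalb. Slc12a3 in the same mice was 347, 257, 430, 438, 277, 381, 262, 346 and 389 CPM, so that the males with the lowest and the highest Pvalb also had the lowest and the highest Slc12a3, while 39.6 CPM of Pvalb went with 262 CPM of Slc12a3 and 10.4 CPM with 389 CPM. In Pkd1KO+ciliaKO females, replicates 1 to 6 had 5.71, 58.9, 5.14, 34.6, 41.04 and 9.86 CPM of Pvalb, and 526.4, 492, 348, 437, 399.7 and 426 CPM of Slc12a3. No mouse of these 2 groups lay between 10.4 and 27.5 CPM of Pvalb.

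A gene next to Pvalb was low where Pvalb was high. Ift27, which encodes a small GTPase of intraflagellar transport, starts 0.0317 Mb from Pvalb (chr15:78159463-78174107 against chr15:78191114-78206400 on GRCm38), and it was chosen after its values were seen, as the gene with the 2nd largest correlation with Pvalb by size among 12824 genes over the 15 Pkd1KO+ciliaKO mice. In the same replicate order Ift27 was 12.6, 14.9, 12.95, 10.8, 12.6, 15.3, 13.04, 11.7 and 13.4 CPM in males and 15.4, 14.03, 16.8, 13.7, 13.5 and 17.5 CPM in females. The 6 males with 27.5 CPM or more of Pvalb thus had 10.8 to 13.04 CPM of Ift27 and the other 3 had 13.4 to 15.3 CPM, and the 3 females with 34.6 CPM or more had 13.5 to 14.03 CPM against 15.4 to 17.5 CPM in the other 3. Ift27 fell in Pkd1KO+ciliaKO against noncystic mice by 0.30 on the log2 scale in males (SE 0.073, adjusted p = 0.0165) and by 0.43 in females (SE 0.096, adjusted p = 0.0360). Of the 20 genes with the largest such correlations, 4 start within 5 Mb of Pvalb, where 1.31% of the genes compared lie. The highest Ift27 of the Pkd1KO+ciliaKO females, 17.5 CPM, was in replicate 6, the library against its label. In the males, replicates 6 and 8 (15.3 and 11.7 CPM) are among the males apart. The correlations and tests of Ift27 are with all mice in and were not repeated without these libraries. The part of the chromosome region in the Pvalb values was not tested.

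Pvalb is also a message of fast skeletal muscle, so 6 muscle genes were examined after the Pvalb values were seen. Ckm, Myh4 and Tnnt3 did not pass the filter, with at most 13 fragments in any mouse. The sum of Acta1, Atp2a1 and Mylpf lay between 1.26 and 1.90 CPM in Pkd1KO+ciliaKO males and between 1.32 and 1.74 CPM in noncystic males, and its ranges overlapped in all 6 groups.

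**Figure D2:**
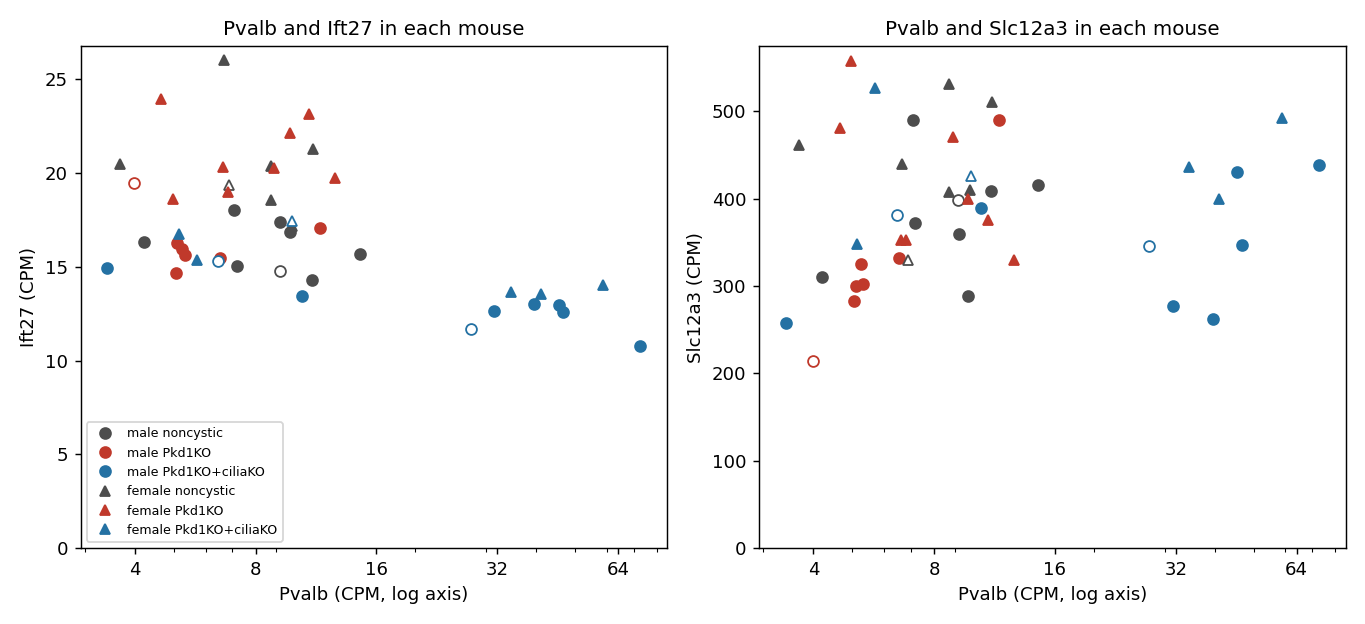
Levels of Ift27 (left) and Slc12a3 (right) in CPM against Pvalb in CPM (log axis) for each of the 45 mice, coloured by genotype with circles for males, triangles for females and hollow points for the 4 males apart and the 2 females against their label. The Pkd1KO+ciliaKO mice at 27.5 CPM of Pvalb and above all have 14.03 CPM of Ift27 or less, while their Slc12a3 spans 262 to 492 CPM.

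Of the kinases and the ligase adaptor, Wnk1 and Klhl3 fell in Pkd1KO males, and Wnk4 and Stk39 were lower in Pkd1KO than in Pkd1KO+ciliaKO females. Wnk1, the kinase upstream of SPAK, had 992, 1271 and 1670 CPM in noncystic males and 937, 995 and 1196 CPM in Pkd1KO males, and 6 of the 8 noncystic males lay above every Pkd1KO male. Its log2 fold change was -0.35 with an SE of 0.10 (adjusted p = 0.0491). Klhl3 had 89.2, 100.0 and 135.1 CPM in noncystic and 60.9, 78.7 and 95.5 CPM in Pkd1KO males, with 5 of 7 Pkd1KO males below every noncystic male, and its log2 fold change was -0.40 with an SE of 0.11 (adjusted p = 0.0339). Wnk4 in the same males had a log2 fold change of -0.37 (SE 0.12, adjusted p = 0.0863), and DESeq2 called it (adjusted p = 0.0451).

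Neither male call held without the 4 males apart, where Wnk1 had -0.277 (adjusted p = 0.113) and Klhl3 -0.273 (adjusted p = 0.0714). Both calls were also lost in fits that left out 1 male, though the log2 fold changes moved little. Over these fits they stayed between -0.404 and -0.295 for Wnk1 and between -0.452 and -0.334 for Klhl3. Wnk1 stayed past the threshold in 2 of 15 fits that left out 1 male (highest adjusted p = 0.106, without Pkd1KO replicate 4). Klhl3 stayed past it in 8 of 15 (highest adjusted p = 0.07, without Pkd1KO replicate 3). Noncystic replicate 3 and Pkd1KO replicate 4, which both lie apart, hold the highest Klhl3 of the noncystic males, 135.1 CPM, and the lowest of the Pkd1KO males, 60.9 CPM. The direction was negative for both genes in all of these fits.

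Wnk4, the kinase most restricted to the distal nephron, had 220, 253 and 290 CPM in noncystic, 186, 215 and 268 CPM in Pkd1KO and 245, 268 and 313 CPM in Pkd1KO+ciliaKO females. In the last comparison 6 of 8 Pkd1KO females lay below every Pkd1KO+ciliaKO female, and the log2 fold change was -0.30 with an SE of 0.084 (adjusted p = 0.0298), or -0.325 without the 2 females against their label (adjusted p = 0.0335). The call ended without Pkd1KO replicate 2 or 8 or Pkd1KO+ciliaKO replicate 3 or 4, with the highest adjusted p, 0.0763, without the last. In males the same comparison gave -0.39 with a larger SE of 0.15 (adjusted p = 0.166); the 2 Pkd1KO+ciliaKO males apart had the highest Wnk4 of all mice, 350.5 and 364 CPM. Without the 4 males apart the male value was -0.146 with an SE of 0.099 (adjusted p = 0.502).

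Stk39, which encodes SPAK, was lower in Pkd1KO than in Pkd1KO+ciliaKO females, with 75.6, 83.9 and 94.1 CPM against 81.6, 96.99 and 119 CPM. The log2 fold change was -0.24 with an SE of 0.073 (adjusted p = 0.0459), and it stayed past the threshold in 2 of 14 fits that left out 1 mouse (highest adjusted p = 0.0898), and without the 2 females against their label it was -0.255 (adjusted p = 0.0519). In males 8 of 9 Pkd1KO+ciliaKO mice lay above every Pkd1KO mouse, and the log2 fold change was -0.33 with an SE of 0.094 (adjusted p = 0.0566). Without the 4 males apart this became -0.22 with an SE of 0.057 (adjusted p = 0.0420), and Pkd1KO+ciliaKO over noncystic males became 0.235 (adjusted p = 0.0443) from 0.28 (adjusted p = 0.127). Pkd1KO and noncystic females had almost the same Stk39, with a log2 fold change of -0.00042 and an SE of 0.055.

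Of the 3 genes of calcium uptake, Trpv5 and Slc8a1 fell in Pkd1KO against noncystic females and Calb1 missed the threshold. Trpv5, the apical calcium channel, had 23.04, 32.2 and 46.2 CPM in noncystic and 20.1, 23.4 and 27.2 CPM in Pkd1KO females. Of 7 noncystic females, 6 lay above every Pkd1KO female, and the lowest was the library against its label. Its log2 fold change was -0.55 with an SE of 0.12 (adjusted p = 0.0185), and it passed the threshold in all 15 fits that left out 1 mouse and in all 9 alternatives. Slc8a1, the exchanger that returns calcium to the blood, had 333, 483 and 553 CPM in noncystic and 195, 270 and 487 CPM in Pkd1KO females, where 7 of 8 lay below every noncystic mouse. Its log2 fold change was -0.64 with an SE of 0.16 (adjusted p = 0.0324). It passed in 5 of 15 fits without 1 mouse (highest adjusted p = 0.0772) and in 6 of 9 alternatives.

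Calb1, the calcium carrier between these steps, had 762, 1243 and 1491 CPM in noncystic and 686, 841 and 959 CPM in Pkd1KO females. Its log2 fold change was -0.50 with an SE of 0.14 (adjusted p = 0.0588), and DESeq2 called it (adjusted p = 0.0115). Without the 2 females against their label, all 3 calcium genes passed the threshold, at -0.62 for Trpv5 (adjusted p = 0.00351), -0.70 for Slc8a1 (adjusted p = 0.0209) and -0.58 for Calb1 (adjusted p = 0.0141). In Pkd1KO against noncystic males the values were -0.36, -0.68 and -0.48, with SEs of 0.16, 0.30 and 0.23 and adjusted p-values of 0.212, 0.194 and 0.232. Noncystic male replicate 3 alone had 45.05 CPM of Trpv5, 900 CPM of Slc8a1 and 1760 CPM of Calb1, the highest of any male in each. Without the 4 males the values were -0.218 for Trpv5, -0.279 for Slc8a1 and -0.175 for Calb1.

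In Pkd1KO+ciliaKO mice the calcium genes did not pass the test against noncystic mice of either sex with all mice in. The levels of Trpv5 were 18.8, 20.7 and 31.5 CPM in males, against 19.6, 25.8 and 45.05 CPM in noncystic males, with a log2 fold change of -0.31 (adjusted p = 0.21) that became -0.33 (adjusted p = 0.0389) without the 4 males. Slc8a1 in Pkd1KO+ciliaKO females, at 211, 433 and 636 CPM, spanned the whole range of the Pkd1KO and noncystic females except the lowest Pkd1KO mouse. Pkd1KO against Pkd1KO+ciliaKO females gave -0.67 with an SE of 0.22 (adjusted p = 0.0573), or -0.562 without the library against its label (adjusted p = 0.121).

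Trpm6, the magnesium channel, did not pass the test in any genotype comparison. Its medians lay between 23.3 and 34.0 CPM in the 6 groups, and its log2 fold changes between -0.24 in Pkd1KO against noncystic males and 0.16 in the same comparison of females. Pkd1KO+ciliaKO males ran from 15.8 to 51.4 CPM, with the 2 highest values in the 2 males apart. Without the 4 males apart Trpm6 was at -0.117 in Pkd1KO against noncystic males and at -0.349 in Pkd1KO+ciliaKO against noncystic males (adjusted p = 0.157), and Pkd1KO against Pkd1KO+ciliaKO males turned from -0.17 to 0.219 (adjusted p = 0.547).

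**Figure D3:**
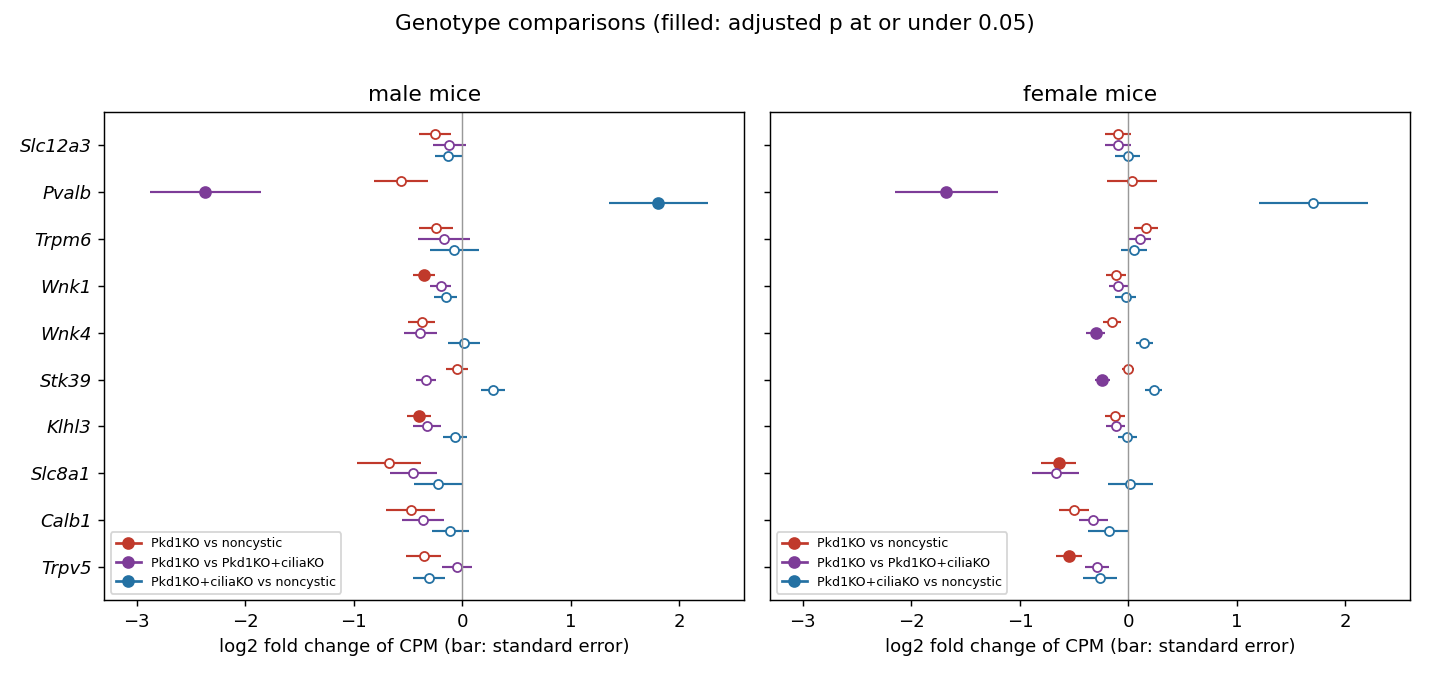
The log2 fold change in CPM of the 10 genes in the 3 genotype comparisons, males left and females right, with bars for the standard error and filled points for an adjusted p at or under 0.05. Points of Pkd1KO against noncystic males all lie left of 0, Pvalb lies furthest from 0 in the 2 comparisons with Pkd1KO+ciliaKO in both sexes, and Slc12a3 has no filled point.

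Set against all genes, the members were called in numbers that need the background beside them. In Pkd1KO against noncystic males 2 of 10 passed, both lower, where 6.30% of all genes passed and 2.25% were lower; all 10 log2 fold changes were negative with a median of -0.365, against -0.00751 over all genes. In Pkd1KO against Pkd1KO+ciliaKO males 1 passed (Pvalb, lower; background 3.77%, lower 1.78%), with all 10 negative and a median of -0.331 against 0.0084. In Pkd1KO+ciliaKO against noncystic males 1 passed (Pvalb, higher; background 8.89%, higher 5.63%), with a median of -0.0925. The 3 comparisons share their groups, and the genes of 1 segment vary together, so equal signs are not separate observations.

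In females, 2 of 10 passed in Pkd1KO against noncystic mice, both lower (background 3.34%, lower 1.32%), with 8 negative and a median of -0.118. In Pkd1KO against Pkd1KO+ciliaKO mice 3 passed, all lower (background 11.7%, lower 4.65%), with 9 negative and a median of -0.264 against -0.0106 over all genes. In Pkd1KO+ciliaKO against noncystic mice none passed by edgeR (background 2.54%), 2 had an unadjusted p under 0.05, and DESeq2 called 1, Pvalb (adjusted p = 0.0314). A fit of the 3 genotypes together also called Pvalb (adjusted p = 0.0402), and limma on log2(TPM + 1) called 1, Stk39 (adjusted p = 0.0303). Without the 4 males, each fit left out those of its 2 groups, 2, 3 and 3 mice in the order below. In Pkd1KO against noncystic males edgeR then called 0 (background 5.72%), with 3 at an unadjusted p under 0.05. It called 2 in Pkd1KO against Pkd1KO+ciliaKO males (3.93%) and 3 in Pkd1KO+ciliaKO against noncystic males (14.0%). Without these males 9 of 10 values were negative in Pkd1KO against noncystic males, with Stk39 at 0.03 and a median of -0.244. In Pkd1KO against Pkd1KO+ciliaKO males 8 were negative, with Trpm6 and Trpv5 above 0 and a median of -0.123, and in Pkd1KO+ciliaKO against noncystic males 8 were negative with a median of -0.143. Without the 2 females the counts were 3 (3.49%), 2 (10.4%) and 0 (5.80%) in the same order, with 1, 1 and 2 mice left out. In the last of these, 3 had an unadjusted p under 0.05.

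Around the members, 40 further genes of the pathway were examined in 5 lists. In Pkd1KO against noncystic males 5 fell and 1 rose, where 2.25% of all genes were lower and 4.05% higher. In Pkd1KO against Pkd1KO+ciliaKO males 1 fell (background lower 1.78%). In Pkd1KO+ciliaKO against noncystic males 2 fell and 1 rose (lower 3.26%, higher 5.63%). In females, in the same order, 1 fell and 1 rose (lower 1.32%, higher 2.02%), 2 fell and 1 rose (lower 4.65%, higher 7.05%), and none passed (background 2.54%). Of the 11 further genes of WNK-SPAK signalling, Wnk3 rose in Pkd1KO males by 0.77 on the log2 scale (SE 0.19, adjusted p = 0.0251) and in Pkd1KO+ciliaKO males by 0.82 (SE 0.18, adjusted p = 0.00669), both against noncystic males. Ppp1r1a, an inhibitor of protein phosphatase 1, fell by 0.66 in Pkd1KO males (SE 0.14, adjusted p = 0.0101). Wnk2 rose in Pkd1KO females by 0.40 (SE 0.098, adjusted p = 0.0282). None of the 8 genes of chloride and potassium channels and the sodium pump passed in any genotype comparison. The values of the further genes and of the markers below are with all mice in. They were not tested without the 4 males apart or the 2 females against their label.

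Of the 7 further genes of magnesium handling, Egf, which encodes the growth factor that stimulates Trpm6, fell by 1.35 in Pkd1KO males (SE 0.19, adjusted p = 0.000585) and by 0.64 in Pkd1KO+ciliaKO males (SE 0.17, adjusted p = 0.0227), both against noncystic males. Cnnm4 fell by 0.34 in Pkd1KO+ciliaKO against noncystic males (adjusted p = 0.00436) and was higher in Pkd1KO than in Pkd1KO+ciliaKO females by 0.36 (adjusted p = 0.007). Of the 9 of calcium handling, Kl, the co-receptor of FGF23, fell by 0.25 in Pkd1KO females (SE 0.060, adjusted p = 0.0244). Of the 5 transcription factors, Tfap2b was lower in Pkd1KO than in noncystic males by 0.58 (SE 0.098, adjusted p = 0.00196), than in Pkd1KO+ciliaKO males by 0.56 (SE 0.13, adjusted p = 0.0210) and than in Pkd1KO+ciliaKO females by 0.42 (SE 0.10, adjusted p = 0.0162). Pou3f3 fell by 0.29 in Pkd1KO males (adjusted p = 0.0415), and Sall3 was lower in Pkd1KO than in Pkd1KO+ciliaKO females by 0.33 (adjusted p = 0.0420).

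Markers of neighbouring segments and of other cells moved in some of the same comparisons. The 6 genes of the thick ascending limb summed to 2521 to 4756 CPM in noncystic, 2156 to 3627 CPM in Pkd1KO and 2564 to 4481 CPM in Pkd1KO+ciliaKO males, and 1 of them, Slc12a1, fell in Pkd1KO males by 0.72 (adjusted p = 0.0220). Slc12a1, the cotransporter of that limb, was also lower in Pkd1KO than in Pkd1KO+ciliaKO mice, by 0.73 in males (adjusted p = 0.0454) and by 0.53 in females (adjusted p = 0.00622), where Wnk4 and Stk39 were called. Cldn16, a paracellular channel of that limb, fell in Pkd1KO against noncystic females by 0.53 (adjusted p = 0.0466), where Trpv5 and Slc8a1 were called. Of 6 intercalated cell genes, 2 (Atp6v0d2 and Foxi1) were lower in Pkd1KO than in Pkd1KO+ciliaKO males, where 1.78% of all genes were lower. The same comparison of females had 1 lower (background lower 4.65%), and 1 was higher in Pkd1KO+ciliaKO than in noncystic males (background higher 5.63%). The 4 macrophage genes summed to 67.6 to 93.7 CPM in noncystic and 90.8 to 246 CPM in Pkd1KO males, and Csf1r rose there by 0.35 (adjusted p = 0.0193). The filter left 2 of 4 mast cell genes for males and 3 for females, and those 3 summed to 0.133 to 0.294 CPM in noncystic and 0.907 to 3.60 CPM in Pkd1KO males, and to 0.507 to 2.99 CPM and 1.72 to 7.39 CPM in the same groups of females. None of the 4 endothelial and 4 fibroblast genes passed in a genotype comparison. In Pkd1KO against noncystic males 1 of 4 podocyte and 2 of 4 tubule injury genes were higher (background higher 4.05%). In Pkd1KO+ciliaKO against noncystic males 2 and 1 were higher (5.63%). In Pkd1KO against Pkd1KO+ciliaKO females 1 tubule injury gene was higher (7.05%). Lcn2, a marker of tubule injury, was among those higher in Pkd1KO and in Pkd1KO+ciliaKO than in noncystic males. Sums over the 6 genes of proximal tubule were 9192 to 15930 CPM in noncystic, 7368 to 13500 CPM in Pkd1KO and 6697 to 12400 CPM in Pkd1KO+ciliaKO males. Of these genes Cubn fell in Pkd1KO males by 0.46 (adjusted p = 0.0475), where Wnk1 and Klhl3 were called. Sums over 7 genes of connecting tubule and principal cells, which border the segment of Trpv5 and Calb1, were 530 to 834 CPM in noncystic and 607 to 1277 CPM in Pkd1KO females. The part of these cells in the members' values was not tested.

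Between the sexes, 4 of the 10 genes were higher in females among Pkd1KO mice, 2 among noncystic and 1 among Pkd1KO+ciliaKO mice. Stk39 in Pkd1KO mice had 75.6 to 94.1 CPM in females and 58.6 to 70.1 CPM in males, with no overlap, and a log2 fold change of 0.38 with an SE of 0.051 (adjusted p = 4.78e-05). Klhl3 was higher by 0.55 (SE 0.11, adjusted p = 0.000973), Wnk1 by 0.42 (SE 0.084, adjusted p = 0.00143) and Trpm6 by 0.45 (SE 0.12, adjusted p = 0.0124), and 7 of 8 females lay above every male for both Klhl3 and Wnk1. These 4 calls held in all 15 fits that left out 1 mouse. All 10 genes had positive values, with a median of 0.375 against -0.00558 over all genes, but 27.2% of all genes passed in this comparison, 13.2% higher in females, so 4 of 10 is to be read against a high background. Slc12a3 was higher by 0.37 with an SE of 0.15, which missed the threshold (adjusted p = 0.0803).

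In noncystic mice 2 of 10 passed, both higher in females: Stk39 by 0.31 (SE 0.098, adjusted p = 0.0244) and Klhl3 by 0.27 (SE 0.092, adjusted p = 0.0411), where 27.5% of all genes passed and 12.2% were higher. The Klhl3 call held in 6 of 15 fits that left out 1 mouse, with a highest adjusted p of 0.0926, and the Stk39 call in 14 of 15, ending without female noncystic replicate 4 (adjusted p = 0.0516). In Pkd1KO+ciliaKO mice 1 passed, Wnk1, higher by 0.31 (SE 0.10, adjusted p = 0.0481; background 14.6%, higher 6.32%), in 4 of 15 such fits (highest adjusted p = 0.104). Without the 4 males and 2 females, 6 members passed in noncystic mice, adding Wnk1, Slc8a1, Calb1 and Trpv5 (background 33.0%), the same number in Pkd1KO+ciliaKO mice, adding Trpm6, Wnk4, Stk39, Klhl3 and Trpv5 (32.3%), and 4 in Pkd1KO mice (29.6%), all higher in females. Pvalb did not follow the others: its values were -0.19 in noncystic, 0.42 in Pkd1KO and -0.28 in Pkd1KO+ciliaKO mice, none past the threshold. Of the 40 further pathway genes 11 were higher and 8 lower in females among noncystic mice (12.2% and 15.3% of all genes). The numbers were 17 and 5 among Pkd1KO mice (13.2% and 14%), and 8 and 3 among Pkd1KO+ciliaKO mice (6.32% and 8.23%).

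**Figure D4:**
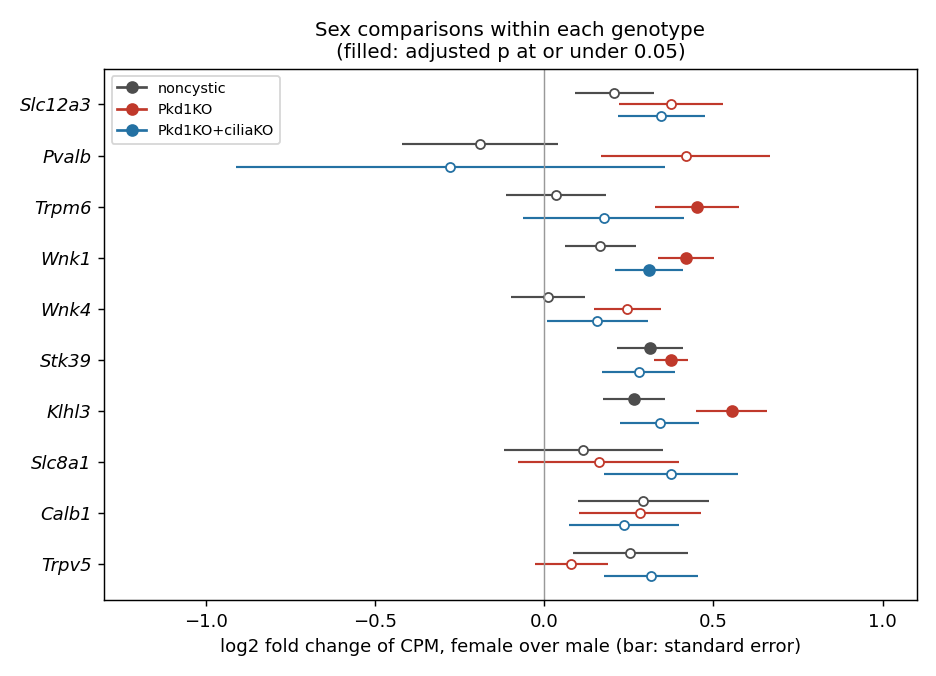
The log2 fold change of females over males in CPM for the 10 genes within each genotype, with bars for the standard error and filled points for an adjusted p at or under 0.05. Filled points all lie right of 0, at Stk39 and Klhl3 in noncystic mice, at Trpm6, Wnk1, Stk39 and Klhl3 in Pkd1KO mice and at Wnk1 in Pkd1KO+ciliaKO mice.

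The differences between the sexes in the response to genotype were tested by themselves, as the interaction of sex and genotype over all 45 mice. None of the 10 genes passed in any of the 3 interactions, with lowest adjusted p-values of 0.703 for Pkd1KO against noncystic, 0.771 for Pkd1KO against Pkd1KO+ciliaKO and 1.0 for Pkd1KO+ciliaKO against noncystic mice, and no member had an unadjusted p under 0.05. DESeq2 called 0 members as well. The background was low as well, at 0.0126%, 0.221% and 0.0316% of all genes. The calls of Wnk1 and Klhl3 in males and of Trpv5 and Slc8a1 in females are thus not shown to differ between the sexes.

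To see which members vary with the transporter among mice of the same group, the values were taken as deviations from the group mean in log2(CPM + 0.1), and 18 relations with Slc12a3 were computed, 9 in each sex. In the 24 males Klhl3 gave a Pearson r of 0.641 and a Spearman rho of 0.643 (permutation p = 0.00159 and 0.00189, adjusted 0.0274 and 0.017 over the 18 relations). Wnk4 gave r = 0.593 and rho = 0.643 (permutation p = 0.00305 and 0.00142, adjusted 0.0274 and 0.017). Without the 2 males farthest from the median of Slc12a3, r was 0.543 for Klhl3 and 0.534 for Wnk4. The other 7 relations in males had r from 0.168 (Trpv5) to 0.41 (Slc8a1), with adjusted permutation p-values of 0.155 or more for Pearson's r and 0.0766 or more for Spearman's rho.

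In the 21 females no relation passed the adjustment. Wnk4 gave r = 0.431 and rho = 0.442 (permutation p = 0.0709 and 0.0599, adjusted 0.155 and 0.14), and Klhl3 r = 0.392 and rho = 0.426 (permutation p = 0.102 and 0.0702, adjusted 0.184 and 0.14). Trpm6 had r = 0.471 and Trpv5 r = 0.474 (permutation p = 0.0416 and 0.0286, both adjusted to 0.155), with r = 0.453 and 0.288 without the 2 farthest females. Slc8a1 gave -0.198 in females and 0.41 in males, and Calb1 0.036 and 0.299; the difference between the sexes was not tested. The paper states 1 batch for the RNASeq, done on frozen isolates. The pulldowns before it used fresh kidneys, and their dates are not in the labels. Values within batches of pulldown could therefore not be given.

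**Figure D5:**
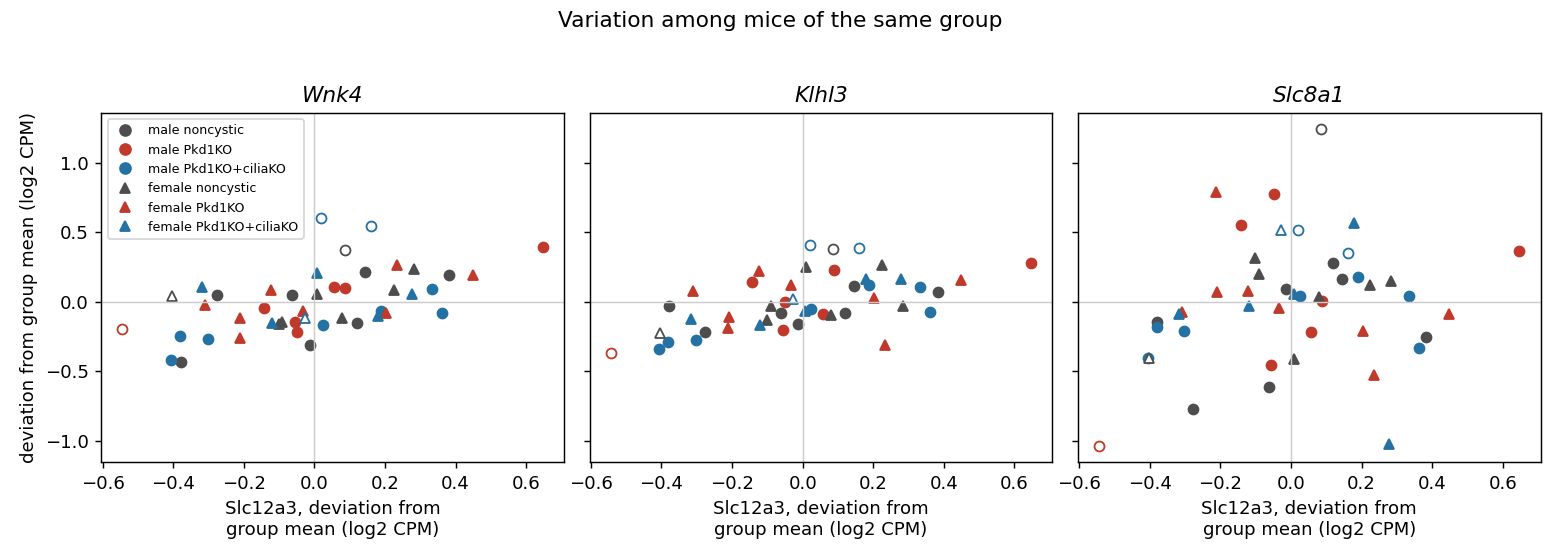
Deviations from the group mean in log2 CPM of Wnk4, Klhl3 and Slc8a1 against that of Slc12a3 for the 45 mice, coloured by genotype with circles for males, triangles for females and hollow points for the 4 males apart and the 2 females against their label. Wnk4 and Klhl3 rise with Slc12a3 in males (r = 0.593 and 0.641), and Slc8a1 has the widest scatter.

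The genes whose deviations were most like those of Slc12a3 over all 45 mice were not among the 10. Among the first 5 were Malrd1 (Pearson r = 0.777), Ldhb (0.744), Abca13 (0.739) and Slc43a2 (0.736), out of 16130 genes compared. Within males r of Malrd1 was 0.857 and within females 0.661. Among the members, Klhl3 ranked in place 163 (0.557) and Wnk4 in place 195 (0.54), followed by Trpm6 in place 741 (0.407), and the lowest was Slc8a1 in place 3245 (0.195). These values share libraries and depth and are a description without a test.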

How the data were processed

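TRAP RNASeq libraries of 45 mice were used, in groups given by the sample labels. The authors deposited counts per gene and mouse, without normalization, and, for each sex, TPM of protein-coding genes, which the authors had kept where 20% of mice or more held 6 counts or more. Per their methods, reads were trimmed with fastp 0.20.0, aligned with STAR 2.7.9 to GRCm38.p6 (GENCODE vM25) and counted with featureCounts 2.0.0; the options for strand and for reads of several loci are not given in the sources used here. Libraries were depleted of ribosomal RNA.

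The counts were tested with edgeR 4.0.16 (R 4.3.3): TMM normalization, quasi-likelihood test, Benjamini-Hochberg adjustment over all genes of the sex's TPM table (for sex comparisons and interactions, the 15828 in both), 0.05 as threshold, 1 fit per pair of groups. CPM used TMM over all mice. TPM tables were made separately for each sex, so TPM values were compared only within a sex. Permutation p-values are two-sided, from 100000 resamples within groups. The alternatives were DESeq2 1.42.0, limma 3.58.1 (voom with sample quality weights, and log2(TPM + 1)), other size factors, filters and samples. The paper itself tested with another version of DESeq2. Scripts were tested on simulated data. The 10 genes and the lists were chosen with earlier results of these data known. Of the further genes, at most 3 per list were named, by smallest p among those past the threshold in the genotype comparisons. Some genes that this rule or the likeness to Slc12a3 would name are not reported here. No 2 of 149 library pairs within a group agreed within sampling noise. Whether mice shared litters is not given, so p-values measure the spread between these mice. Totals and the 349-fragment minimum cover counting error only. Promoters are from RefSeq.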

Additional observations from a re-analysis of the deposited data

Results flagged for a closer look

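Of 60 combinations of gene and group, 6 held a mouse far from the others of its group by Dixon's test; chance flags about 1 in 20. All 6 were the highest mouse of the group. Male noncystic replicate 3, 1 of the 4 males apart, had 900 CPM of Slc8a1 (next mouse 460) and 1760 CPM of Calb1 (next 964). Female Pkd1KO replicate 4 had 487 CPM of Slc8a1 (next 297). Male Pkd1KO replicate 2 had 489 CPM of Slc12a3 (next 332) and 11.6 CPM of Pvalb (next 6.52), and male Pkd1KO replicate 3 had 33.4 CPM of Trpv5 (next 22.3).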

How the results depend on the processing

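No member past the threshold changed sign under any alternative. In Pkd1KO against noncystic males, 3 of 9 alternatives kept the call of Wnk1 and 6 that of Klhl3. Each male call of Pvalb was kept by 7 of 9. In Pkd1KO against Pkd1KO+ciliaKO females, 6 of 9 kept Pvalb, 8 kept Wnk4 and 5 kept Stk39. Of the values of members and counts, leaving out 1 mouse kept 1253 on their side of the threshold, lost 72 and gained 25, and the other alternatives kept 770, lost 28 and gained 48. In members past the threshold, Pkd1KO against noncystic males (2) gave 1 with DESeq2 size factors, 1 with no filter on low counts, 0 by limma on log2(TPM + 1) and 0 without the 4 males apart. In Pkd1KO against noncystic males Wnk4 was gained by DESeq2 (adjusted p = 0.0451) and by voom with weights (adjusted p = 0.0348). Trpv5 was gained there with a replicate block (adjusted p = 0.00878). Pkd1KO against Pkd1KO+ciliaKO males (1) gave 2 by DESeq2 and 2 without the 4 males. Stk39 was gained in both and also by voom with weights, and equal counts need not hold the same genes. Pkd1KO+ciliaKO against noncystic males (1) gave 2 by limma voom with sample quality weights, 0 by limma on log2(TPM + 1) and 3 without the 4 males. Pkd1KO against noncystic females (2) gave 1 with the 3 genotypes in one fit and 1 by limma on log2(TPM + 1). Calb1 was gained there by DESeq2 (adjusted p = 0.0115), by voom with weights (adjusted p = 0.0285) and without the 2 females (adjusted p = 0.0141). Pkd1KO against Pkd1KO+ciliaKO females (3) gained Slc8a1 by DESeq2 and in one fit, and Trpv5 by limma on log2(TPM + 1). Voom with weights gained Slc8a1, Calb1 and Trpv5 there. Pkd1KO+ciliaKO against noncystic females (0) gave 1 by DESeq2, 1 in one fit and 1 by limma on log2(TPM + 1). Females against males gave 6 in place of 2 in noncystic mice without the libraries in doubt, and in Pkd1KO+ciliaKO mice (1) 2 by DESeq2, 0 with no filter, 9 by voom with weights and 6 without those libraries. Relations with Slc12a3 past the threshold numbered 5 in place of 2 on log2(TPM + 1). Leaving out 1 mouse gave 0 to 3, 1 to 2 and 1 to 2 members in the male comparisons, 1 to 3, 0 to 5 and 0 to 1 in the female ones, and 0 to 4, 4 to 7 and 0 to 4 between the sexes, each in the order used in the report. The cause of these changes was not tested beyond the samples or genes an alternative leaves out.

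Over all genes, DESeq2 called 1640, 1234 and 2157 genes in the male comparisons (edgeR 1008, 603 and 1422) and 962, 2507 and 1280 in the female ones (533, 1869 and 405). Limma on log2(TPM + 1) called 625 in the first male comparison and 1000 in the last female one, and voom with weights 1389, 2803, 809 and 1357 where edgeR called 603, 1422, 533 and 405, and 6584 where it called 2303. The 3 genotypes in one fit gave 929 in place of 603. In the 3 interactions DESeq2 called 29, 72 and 21 genes (edgeR 2, 35 and 5), and edgeR without the libraries in doubt 0, 44 and 7. Without the libraries in doubt the counts were 2240 in place of 1422, 926 in place of 405 and 5111 in place of 2303.

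Replicate numbers did not pair the mice: deviations of mice with the same number correlated above 0.1 in 0 to 3 of 6 to 8 pairs, and 0 to 2 mice correlated best with their own number. With a replicate block, members past the threshold were 1, 0 and 1 in males, 1, 0 and 0 in females and 1, 3 and 1 between the sexes, and all genes called were 821, 178, 765, 298, 625 and 74 in the genotype comparisons.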

Other observations

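The widest spread among mice of 1 group was that of Pvalb in Pkd1KO+ciliaKO mice, and 2 genes of the same chromosome region varied with it. Besides Ift27, Apobec3, a cytidine deaminase that starts 1.7 Mb from Pvalb (chr15:79891659-79915906 on GRCm38), ranked 9 by size of correlation among the 12824 genes over the 15 Pkd1KO+ciliaKO mice. Replicates 1 to 9 of the males had 8.81, 11.6, 7.87, 3.45, 7.03, 21.0, 6.73, 13.8 and 10.9 CPM of Apobec3, and replicates 1 to 6 of the females 16.8, 7.66, 16.2, 13.3, 10.3 and 11.3 CPM. The male with the highest Pvalb, 72.7 CPM, thus had the lowest Apobec3, and so had the female with 58.9 CPM. Apobec3 differed between Pkd1KO+ciliaKO and noncystic mice by 0.03 on the log2 scale in males (adjusted p = 0.95) and by -0.06 in females (adjusted p = 0.847) in edgeR's test. Both genes were chosen after their values were seen, and the cause of the spread was not tested. Their correlations and tests are with all mice in, the males apart and the females against their label included.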
